A study of Mus musculus with 6 samples.

Results

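B16F10 cells, a pigmented mouse melanoma line, were compared after 48 h at 2 doses of a compound, 40 µM against 2.5 µM. The series title names the compound SQ-diEG, and the sample labels name it di-sq. The comparison used the 4 arrays titled with those doses, replicates 1 and 2 at each, out of 6 arrays in the series, and the other 2 arrays came from cells kept in medium without the compound (control). All groups shared the line and the 48 h, and nothing else is said of the compound. The free-text description of 1 array at 2.5 µM says medium, and those of the other 3 dose arrays name another treatment. Titles, source names and treatment fields agree on the doses and were followed. Whether arrays 1 and 2 of a dose stem from different cultures is not stated, and p-values therefore reflect the spread among these arrays, which may be technical.

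Values are log2 levels from single-colour Affymetrix arrays, normalised by the authors with robust multi-array averaging. A difference between doses is 40 µM minus 2.5 µM on that deposited scale, and a fold is 2 raised to it. Levels of different genes come from different probes and were not ranked against each other. A gene counted as above background when its mean over the 4 dose arrays exceeded 9.93, the level that 95 percent of the array's negative control features stay under, averaged over those arrays. This held for 4189 of 19505 genes (21.5%). Zfp280d lay just inside the threshold at 9.93025 and Tom1l2 just outside at 9.928048. As replicate numbers are shared between doses, the difference was also taken within each number, which gives a replicate 1 pair and a replicate 2 pair.

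The replicate 1 array of each dose was set apart by its control features. Hybridisation controls had a mean of 10.43 (2.5 µM) and 10.30 (40 µM) there and of 10.82 to 11.15 on the remaining arrays, and poly-A controls one of 5.65 and 5.63 there and of 6.35 to 7.42 elsewhere. Each dose thus held 1 such array, and the replicate 1 pair compares these arrays. The replicate 2 arrays were less alike. Hybridisation controls were at 10.82 (2.5 µM) and 11.15 (40 µM) there, and poly-A controls at 6.79 and 7.42. The median SD of a gene was 0.0875 in control, 0.192 at 2.5 µM and 0.259 at 40 µM. Standard errors (SE) and intervals below rest on a spread pooled over these groups and not on the dose arrays alone. Where the controls are closer together than the dose arrays, this lowers the SE. Of 9 markers of the melanoma line 8 lay above background, all but S100b. None of 30 measured markers of fibroblasts, keratinocytes, leukocytes and endothelium did, and 29 of them lay below the median negative control feature.

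Several stress pathways bear on the genes below. NRF2 is a transcription factor that KEAP1 holds for degradation in resting cells. Oxidants and electrophiles release it, and it binds antioxidant response elements upstream of genes for glutathione and thioredoxin metabolism and NADPH supply. Unfolded protein in the endoplasmic reticulum (ER) activates ATF6 and XBP1, which act through ER stress response elements on genes of chaperones and disulfide isomerases. Metal ions, above all zinc, activate MTF1, which acts through metal response elements on the metallothionein genes. In pigment cells MITF is the central factor of the lineage and drives genes of melanin synthesis and melanosome transport.

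These elements were looked for in RefSeq promoter windows of GRCm38.p6, each with 250 bases before and 50 after an annotated start, on both strands. The stretches shown are those of genes that lay higher at 40 µM in both pairs, printed on the gene's strand with 20 bases on either side of a match unless the start is nearer, and with the match in capitals. The antioxidant response element core, TGACNNNGC, occurred in 9 of the 22 genes of the NRF2 and oxidative stress list that had a window (40.9%), against 12.4% of all 32851 windows and 15% of measured genes. The core also occurred in 4 of 16 ER chaperone genes with a window (25%) and in 2 of 10 metallothionein and metal handling genes (20%). The core's letters can take in the AP-1 site TGACTCA, as the match in Prdx1 does. In Srxn1 and Pgd the matches lay after the start and are not shown. The matches lay 134 bases before the start in Gclm (chr3:122245403-122245451, plus strand), 92 in Txnrd1 (chr10:82859094-82859142, plus strand) and 133 in Prdx1 (chr4:116685446-116685494, plus strand).
Gclm: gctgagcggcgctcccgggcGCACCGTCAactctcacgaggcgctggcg
Txnrd1: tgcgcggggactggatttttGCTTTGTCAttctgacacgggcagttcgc
Prdx1: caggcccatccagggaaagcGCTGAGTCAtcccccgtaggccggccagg

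The ER stress response element, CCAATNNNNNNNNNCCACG, was rare, with a match in 39 of all windows (0.119%) and in 28 of 15691 measured genes (0.178%). In the list of ER chaperones and disulfide isomerases 7 of 16 genes with a window held it (43.8%), and in the NRF2 and oxidative stress list 0 of 22 did. Shown are the ER chaperone genes Hspa5 (chr2:34772005-34772063, plus strand), Hsp90b1 (chr10:86705513-86705676, minus strand, 2 matches), Calr (chr8:84847055-84847113, minus strand), Pdia6 (chr12:17266471-17266529, plus strand) and Creld2 (chr15:88819500-88819558, plus strand).
Hspa5: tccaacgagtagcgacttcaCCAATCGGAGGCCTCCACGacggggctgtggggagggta
Hsp90b1: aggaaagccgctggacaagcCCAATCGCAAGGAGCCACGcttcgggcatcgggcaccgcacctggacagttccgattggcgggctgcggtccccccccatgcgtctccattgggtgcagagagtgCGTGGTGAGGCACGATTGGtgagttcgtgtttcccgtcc
Calr: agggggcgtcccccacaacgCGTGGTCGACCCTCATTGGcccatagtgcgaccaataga
Pdia6: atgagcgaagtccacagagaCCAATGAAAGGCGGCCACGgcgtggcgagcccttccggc
Creld2: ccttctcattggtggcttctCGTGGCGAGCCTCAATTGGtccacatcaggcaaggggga

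The metal response element core, TGCACNC or TGCGCNC, is short and common, in 25.7% of all windows and 33.2% of measured genes. Of the 10 genes with a window on the list of metallothioneins and metal handling 7 held it (70%). In the NRF2 and oxidative stress list 4 of 22 did (18.2%), and in the ER chaperone list 5 of 16 (31.2%). Mt1 had 3 matches and Mt2 had 4, and the match nearest the start is shown for each, in Mt1 at chr8:94179046-94179088 and in Mt2 at chr8:94172548-94172594, both on the plus strand. A match describes letters in a window and says nothing of binding in these cells. The shares describe lists put together by pathway and not the difference between the doses. The antioxidant response element core also occurred in Sesn2, Trpm1 and Insc, which were lower at 40 µM in both pairs.
Mt1: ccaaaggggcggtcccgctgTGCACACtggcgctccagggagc
Mt2: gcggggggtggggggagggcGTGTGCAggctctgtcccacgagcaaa

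Across all genes, no gene passed an adjusted p under 0.05 between the doses (0 of 19505, 0%; limma with Benjamini-Hochberg adjustment). The smallest adjusted p was 0.132, of Srxn1. With no adjustment, p was under 0.05 for 456 genes with a higher level at 40 µM (2.34%) and 639 with a lower one (3.28%), 1095 together where chance alone gives about 975. Higher and lower therefore compare the levels on these arrays. Counts at the unadjusted level depended on 4 arrays. Without control replicate 1 they were 187 higher and 282 lower, without control replicate 2 186 and 284, without 40 µM replicate 1 1234 and 1423, and without 40 µM replicate 2 2284 and 1794.

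Among the 4189 genes above background, 1062 were higher at 40 µM in both pairs (25.4%) and 1059 lower (25.3%). Both arrays at 40 µM lay above both at 2.5 µM for 414 genes and below both for 651, which is 9.88% and 15.5% of the 4189. An unadjusted p under 0.05 was reached by 65 genes with a higher level (1.55% of the 4189) and 118 with a lower one (2.82%). The differences in the pairs were almost unrelated over these genes (r = 0.078 across genes, which are not independent replicates). The genes at the ends of the distribution were few. At least 2-fold in both pairs, 5 genes were higher (Srxn1, Mt2, Gclm, Ephx1 and Cited1) and 4 lower (St3gal4, Prickle1, Gsdmc and Hpgds). The 20 genes in each direction with the largest smaller-of-2 pair differences are described by role below. Of these, 4 of the higher genes (Srxn1, Dnajb11, Bloc1s1 and Psme1) had a mean below the background threshold at 2.5 µM, and 3 of the lower genes (St3gal4, Insc and Trim63) had one at 40 µM.

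**Figure D1:**
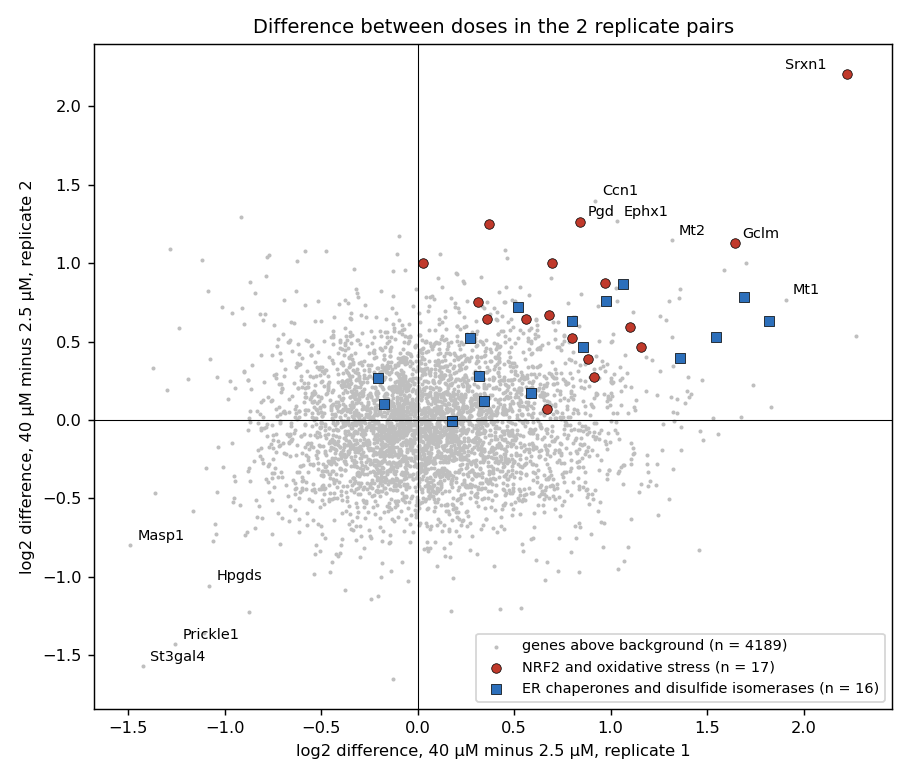
Difference between the doses (40 µM minus 2.5 µM, log2) in the replicate 1 pair on the horizontal axis and the replicate 2 pair on the vertical axis, 1 point per gene above background (n = 4189). Members of the NRF2 and oxidative stress list (red circles, n = 17) all lie at the upper right, as do 13 of 16 ER chaperone genes (blue squares), while the grey points of the other genes form a cloud around 0 with little relation between the pairs. Srxn1 stands at the far corner, with 2.22 and 2.20.

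The gene with the largest difference was Srxn1, which encodes sulfiredoxin, the enzyme that repairs overoxidised peroxiredoxins. Its level was 9.63 and 9.57 on the arrays at 2.5 µM and 11.85 and 11.78 at 40 µM, with the controls between, at 10.21 and 10.43. The measured difference was 2.21 (SE 0.19, 95% confidence interval 1.77 to 2.66), with 2.22 and 2.20 in the pairs. Both arrays at 2.5 µM were not above background. Taken against each array's 95th percentile of the negative controls, the mean at 40 µM was at least 3.65-fold higher. This bound carries no sampling error, unlike the interval. The mean at 2.5 µM, 9.60 ± 0.04 (SD, n = 2), was below both controls and below background, and that at 40 µM, 11.81 ± 0.06 (SD, n = 2), above both controls. With the array split (the arrays low in hybridisation controls against the others) as a block, Srxn1 was the 1 gene that passed (limma, adjusted p = 0.0275). Its adjusted p was 0.26 with array weights and 0.9997 with the 4 dose arrays only (limma).

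In the NRF2 and oxidative stress list, 24 of 26 measured members were higher at 40 µM in both pairs and 2 lower. Of all genes 24.6% were higher and 26.2% lower, and these shares apply to the counts of every list below. The doses did not overlap for 19 of the higher members, against 12.4% of all genes, and 15 had an unadjusted p under 0.05, against 2.34% of all genes. The median difference over the 26 was 0.67, with 0.75 and 0.65 in the pairs, against -0.003, -0.001 and -0.016 over all genes. After quantile normalization of the genes 20 members were higher in both pairs and 2 lower, and no member's mean difference changed sign. With the arrays paired the other way, 19 were higher in both pairs. Above background lay 17 of the 26, of which Srxn1 and Sod2 passed through 40 µM alone.

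Enzymes of glutathione synthesis and recycling were among these genes. Gclm, the modifier subunit of glutamate-cysteine ligase, was at 12.79 and 12.66 at 2.5 µM and at 14.43 and 13.79 at 40 µM, with controls at 13.21 and 13.27. The doses stood on opposite sides of the controls, and the difference was 1.38 (SE 0.24), or 2.61-fold. Gclc, the catalytic subunit, followed the low side of that pattern more than the high side. It lay at 11.39 and 11.77 at 2.5 µM, at 12.27 and 12.15 at 40 µM and at 12.18 and 12.21 in control, so that the difference of 0.63 (SE 0.20) lay below the controls. Gsr, glutathione reductase, was at 12.61 and 12.28 at 2.5 µM and at 13.57 and 13.14 at 40 µM, against 12.39 and 12.31 in control. Here the low dose was near control and the high dose above it, by 0.92 over the low dose (SE 0.22). Slc7a11, the cystine importer that feeds glutathione synthesis, was at 14.97 and 14.95 at 2.5 µM and at 15.33 and 15.59 at 40 µM, a difference of 0.50 (SE 0.17) around controls of 15.07 and 15.13. The adjusted p was 0.854 for each of these 4 genes (limma).

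Of the NADPH and thioredoxin genes, Pgd, the second NADPH-producing enzyme of the pentose phosphate pathway, was at 12.92 and 12.31 at 2.5 µM and at 13.76 and 13.57 at 40 µM, against 12.27 and 12.35 in control. The difference was 1.05 (SE 0.24), or 2.07-fold, with no overlap of the doses. Txnrd1, thioredoxin reductase, lay at 16.79 and 16.62 at 2.5 µM and at 17.35 and 17.26 at 40 µM, above the controls (16.47 and 16.54) at both doses and 0.60 higher at the high dose (SE 0.15). Prdx1, a peroxiredoxin, showed another pattern. Its levels were 16.80 and 15.86 at 2.5 µM and 17.71 and 16.13 at 40 µM, so that replicate 1 was far above replicate 2 at both doses and the doses overlapped. Its difference of 0.60 (SE 0.51) became -0.20 without 40 µM replicate 1. Cat, catalase, which breaks down hydrogen peroxide, was at 14.00 and 13.30 at 2.5 µM and at 14.70 and 14.30 at 40 µM, 0.85 higher (SE 0.27), with controls of 13.92 and 13.83.

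Hmox1, heme oxygenase 1, lay below the controls (17.33 and 17.28) on both arrays at 2.5 µM, at 16.64 and 16.82. At 40 µM it was at 17.02 and 18.07, on either side of the controls, and the difference of 0.81 (SE 0.32) came mostly from replicate 2. Nqo1, the quinone reductase often used to report NRF2 activity, was not above background. It lay at 6.26 and 5.46 at 2.5 µM and at 8.27 and 6.94 at 40 µM, a difference of 1.75 (SE 0.46), against 6.26 and 6.28 in control. Of the regulators, Nfe2l2, which encodes NRF2, was at 8.68 and 8.35 at 2.5 µM and 8.84 and 8.72 at 40 µM, a difference of 0.26 (SE 0.22). Keap1 was at 9.08 and 8.81 and at 9.88 and 9.42, a difference of 0.70 (SE 0.24). Neither regulator was above background. The members that were lower in both pairs, Gsta4 (a glutathione transferase) and Sesn2 (sestrin 2), were not above background either, with differences of -0.52 (SE 0.26) and -0.18 (SE 0.22), and were named because they were the exceptions.

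Measured against the controls, the list was split by dose. Its median lay 0.14 below control at 2.5 µM, where 16 of 26 members had a mean below the control mean, and 0.65 above control at 40 µM, where 22 had a mean above it. By array, the medians against control were 0.08 and -0.29 at 2.5 µM and 0.95 and 0.37 at 40 µM, in the order of the replicates. The median of either replicate 1 exceeded that of replicate 2 at the same dose. The 2 dose comparisons with control share the control arrays, so these values stand side by side without a test.

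**Figure D2:**
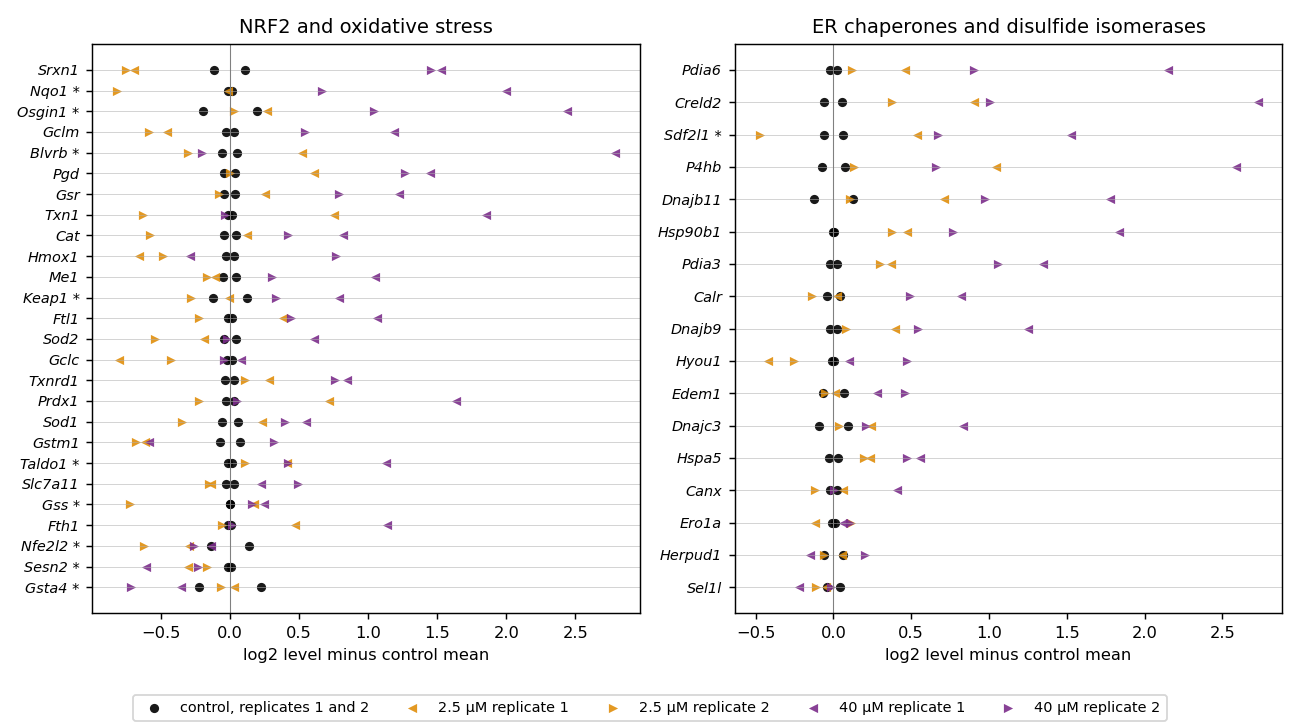
Level of each measured member of 2 gene lists on each array, as log2 level minus the control mean; black circles are the controls, orange triangles 2.5 µM and purple triangles 40 µM, pointing left for replicate 1 and right for replicate 2, and an asterisk marks a gene that is not above background. In the left panel Srxn1, Gclm and Gclc have the 2.5 µM arrays left of the controls. Of the 26 members there, 16 have a 2.5 µM mean below the control mean and 22 a 40 µM mean above it. Of the 17 ER chaperone genes in the right panel, 7 have a 2.5 µM mean below the control mean and 16 a 40 µM mean above it.

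Genes of ER chaperones and disulfide isomerases formed the other list with a large median difference in both pairs. Of 17 measured members 14 were higher at 40 µM in both pairs and 0 lower, against 24.6% and 26.2% of all genes. The doses did not overlap for 11, against 12.4% of all genes. An unadjusted p under 0.05 was reached by 9, against 2.34% of all genes, and an adjusted one by none (limma). The median difference was 0.66, with 0.80 and 0.52 in the pairs, and was 0.35 without 40 µM replicate 1. After quantile normalization 14 were still higher in both pairs, and with the other pairing 11. Above background lay 16 of the 17, and 2 of these, Dnajb11 and Creld2, passed through 40 µM alone.

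Pdia3, a disulfide isomerase that works on glycoproteins with calreticulin, was at 15.47 and 15.40 at 2.5 µM and at 16.45 and 16.16 at 40 µM, against 15.13 and 15.08 in control, a difference of 0.87 (SE 0.17) or 1.82-fold. Pdia6, another isomerase, was at 13.88 and 13.54 at 2.5 µM and at 15.57 and 14.32 at 40 µM, a difference of 1.24 (SE 0.38) that was 1.69 in the replicate 1 pair and 0.78 in the other. Calr, the calcium-binding lectin chaperone calreticulin, lay at 18.03 and 17.87 at 2.5 µM and at 18.83 and 18.50 at 40 µM, 0.71 higher (SE 0.17), with controls of 18.05 and 17.97. All 3 genes had both arrays at 40 µM above both at 2.5 µM, and Calr differed from Pdia3 and Pdia6 in that its low dose lay with the controls.

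Dnajb11, a co-chaperone of BiP, was at 10.16 and 9.55 at 2.5 µM and 11.22 and 10.42 at 40 µM, a difference of 0.96 (SE 0.33). Creld2, a secreted ER stress protein, was at 9.62 and 9.09 and at 11.44 and 9.72, a difference of 1.23 (SE 0.51) that was 1.82 in the replicate 1 pair and 0.63 in the replicate 2 pair. Its 40 µM replicate 2 was only just above 2.5 µM replicate 1. Hsp90b1, the ER form of HSP90, was at 16.70 and 16.61 at 2.5 µM and at 18.06 and 17.00 at 40 µM, against 16.23 on both controls, 0.88 higher (SE 0.32). Hspa5, which encodes BiP, the main ER chaperone, stood near the top of the deposited scale, and whether this limited its difference was not tested. It was at 19.19 and 19.14 at 2.5 µM and at 19.51 and 19.42 at 40 µM, 0.30 higher (SE 0.13), against 18.92 and 18.98 in control, so that the 3 groups did not overlap.

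The members without a shared direction were Ero1a, the ER oxidase, and Herpud1 and Sel1l, both of ER-associated degradation, with differences of 0.09 (SE 0.15), 0.03 (SE 0.18) and -0.04 (SE 0.17). These differences were within their error, and their signs turned without single arrays. In the separate list of factors and targets of ATF4, CHOP and XBP1, 6 of 20 measured members were higher in both pairs and 6 lower, with a median difference of 0.02, or -0.17 to 0.08 without single arrays. Xbp1 itself was at 12.98 and 12.84 at 2.5 µM and at 13.76 and 13.23 at 40 µM, 0.59 higher (SE 0.22), and lay near control at the low dose (13.06 and 12.86). Ddit3, which encodes CHOP, was at 14.43 and 14.30 and at 14.75 and 14.40, a difference of 0.21 (SE 0.18).

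The metallothioneins, small cysteine-rich proteins that bind zinc and copper, had large differences and a wide spread. Mt1 was at 16.14 and 14.97 at 2.5 µM and at 18.04 and 15.74 at 40 µM, against 14.98 and 14.96 in control. Mt2 was at 14.95 and 13.18 at 2.5 µM and at 16.26 and 14.32 at 40 µM, against 13.31 on both controls. For both genes replicate 1 exceeded replicate 2 at each dose by more than 1 log2 unit, so that 2.5 µM replicate 1 lay above 40 µM replicate 2 and the doses overlapped. Within the pairs the differences were 1.91 and 0.77 for Mt1 and 1.32 and 1.14 for Mt2, and over the groups 1.34 (SE 0.70) and 1.23 (SE 0.71), with adjusted p of 0.854 and 0.858 (limma).

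Their list, metallothioneins and metal or iron handling, did not share a direction. Of its 13 measured members, Mt1 and Mt2 included, 5 were higher in both pairs and 2 lower, and the median difference was 0.08, or 0.003 without 2.5 µM replicate 1 and 0.19 and 0.18 without replicates 1 and 2 at 40 µM. Slc40a1, the iron exporter ferroportin, which is not above background over the 4 arrays, was at 8.71 and 9.25 at 2.5 µM and at 10.23 and 9.85 at 40 µM, 1.06 higher (SE 0.26). Tfrc, the transferrin receptor that brings iron in, was at 10.15 and 10.96 at 2.5 µM and at 9.94 and 9.84 at 40 µM, a difference of -0.66 (SE 0.28) that was -1.12 in the replicate 2 pair and -0.20 in the other.

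Lists of sterol genes had smaller median differences between the doses than the NRF2 and ER chaperone lists. In the list of liver X receptor (LXR) targets and sterol efflux, 6 of 13 measured members were higher in both pairs and 2 lower. The shares of all genes were 24.6% and 26.2%. The median of 0.14 was -0.05 without 2.5 µM replicate 2, -0.04 without 40 µM replicate 1 and 0.44 without 40 µM replicate 2. Abca1, the exporter that loads cholesterol onto apolipoprotein, was not above background on any dose array, so no fold is given. It was at 8.24 and 8.03 at 2.5 µM and 9.64 and 9.53 at 40 µM, against 8.11 and 7.93 in control. The difference of Abca1 on these levels ran from 1.35 to 1.56 without single arrays, large for this list. Mylip, the ubiquitin ligase that degrades the LDL receptor, was at 10.52 and 10.19 at 2.5 µM and 11.55 and 10.94 at 40 µM, 0.89 higher (SE 0.27), and again near control at the low dose (10.47 and 10.20). Scd1, stearoyl-CoA desaturase, was at 13.51 and 13.53 and at 13.97 and 14.61, 0.77 higher (SE 0.23). Lpcat3, a phospholipid-remodelling acyltransferase, showed most of its distance from control already at 2.5 µM, with 15.04 and 14.78 there, 15.36 and 15.16 at 40 µM and 14.32 and 14.22 in control.

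In cholesterol synthesis, 9 of 19 measured members were higher in both pairs and 1 lower, against 24.6% and 26.2% of all genes. The median difference was 0.25, with 0.49 in the replicate 1 pair and 0.14 in the replicate 2 pair. It was 0.12 and 0.51 without replicates 1 and 2 at 40 µM. Set against control, the list's median was 0.30 at the low and 0.44 at the high dose. Sqle, squalene epoxidase, was not above background over the dose arrays. Its mean at 2.5 µM was 9.67, under the background level of 9.94 there, and both controls also lay under background. On these levels its doses lay close together and above both controls. It was at 9.80 and 9.53 at 2.5 µM and at 10.14 and 9.84 at 40 µM, a difference of 0.32 (SE 0.22), against 8.72 and 8.86 in control. Dhcr7, the last enzyme of the pathway, was 0.40 higher at 40 µM (SE 0.19), at 10.39 and 10.62 against 10.16 and 10.04, with the low dose below the controls (10.40 and 10.49).

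Among the remaining genes that were higher in both pairs, Ephx1, microsomal epoxide hydrolase of xenobiotic metabolism, was at 11.59 and 11.18 at 2.5 µM and at 12.62 and 12.45 at 40 µM, 1.15 higher (SE 0.21). Ccn1, a matricellular protein and a target of YAP, was at 13.35 and 13.19 and at 14.27 and 14.59, 1.16 higher (SE 0.18), with controls between at 13.46 and 13.48. The YAP and TEAD list did not share a direction. Of 16 measured members 4 were higher in both pairs and 7 lower, against 24.6% and 26.2% of all genes. The doses did not overlap for 4 higher and 4 lower members, against 12.4% and 16.3% of all genes. Ptpn14, Crim1 and Yap1 itself had differences of -0.66 (SE 0.20), -0.48 (SE 0.18) and -0.35 (SE 0.20). Cited1, a transcriptional coregulator found in melanocytes, was at 10.42 and 9.81 at 2.5 µM and 12.12 and 10.81 at 40 µM, 1.35 higher (SE 0.43). Lipa, lysosomal acid lipase, was at 10.86 and 10.80 and at 11.70 and 11.60, 0.82 higher (SE 0.19), with close replicates at both doses.

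The other named genes that were higher in both pairs had a wide spread between replicates at each dose. These were Dbp (a clock output transcription factor), Bloc1s1 (a subunit of the BLOC-1 complex), Eef1e1 (a scaffold of the tRNA synthetase complex), Psme1 (a proteasome activator subunit), Dynlrb1 (a dynein light chain) and Dad1 (a subunit of oligosaccharyltransferase). With Mt1 and Mt2 they make the 8 of 20 genes for which 2.5 µM replicate 1 lay above 40 µM replicate 2. Dbp, for example, was at 11.92 and 10.25 at 2.5 µM and at 13.51 and 11.21 at 40 µM, a difference of 1.27 (SE 0.77). Dad1 was at 13.88 and 12.15 and at 15.18 and 12.91, and its difference of 1.03 (SE 0.78) became -0.11 without 40 µM replicate 1. Over the 20 genes the adjusted p ran from 0.132 to 0.883 (limma), and 12 had no overlap of the doses. Such a gap in this direction held for 9.88% of genes above background, and the choice by pair differences favours it.

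**Figure D3:**
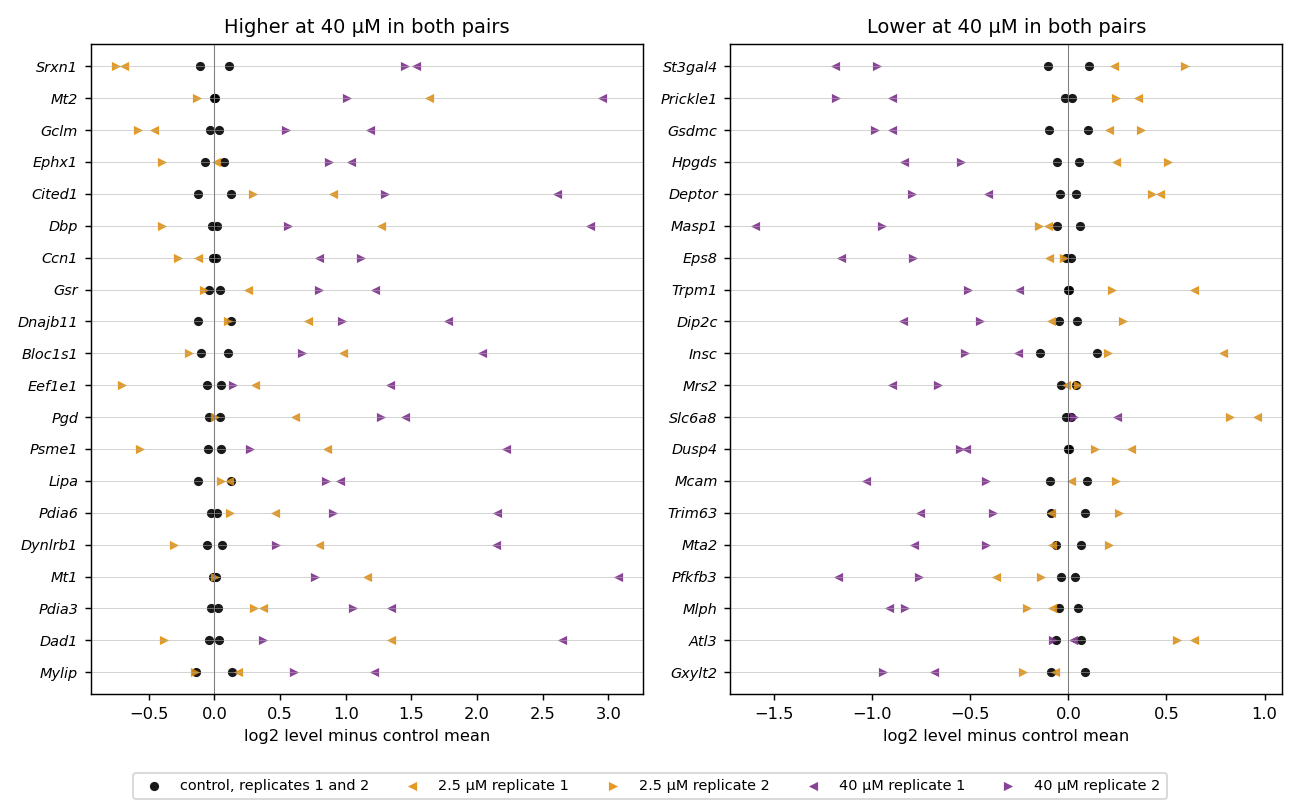
Level of the 20 genes higher (left) and the 20 genes lower (right) at 40 µM in both pairs, chosen by the smaller of the 2 pair differences, on each array as log2 level minus the control mean; black circles are controls, orange triangles 2.5 µM and purple triangles 40 µM, pointing left for replicate 1 and right for replicate 2. On the left 8 genes, among them Mt1, Mt2 and Dad1, have the 2.5 µM replicate 1 point above the 40 µM replicate 2 point, and on the right the doses are apart for all 20 genes.

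The 20 genes that were lower in both pairs had tighter replicates. The doses did not overlap for any of them, and each had an adjusted p of 0.854 (limma). No overlap in this direction held for 15.5% of genes above background, and the choice by pair differences favours it. St3gal4, a sialyltransferase of glycoprotein and glycolipid glycans, was at 11.04 and 11.40 at 2.5 µM and at 9.61 and 9.83 at 40 µM, with controls between at 10.70 and 10.90. The measured difference was -1.50 (SE 0.22). Both arrays at 40 µM were not above background, so the level there is at least 2.47-fold lower. Prickle1, a planar cell polarity protein, was at 13.05 and 12.94 and at 11.79 and 11.51, 2.53-fold lower, against 12.71 and 12.68 in control. Gsdmc, a gasdermin, was at 13.05 and 13.22 and at 11.95 and 11.86, 2.35-fold lower, against 12.75 and 12.95. In these 3 genes the low dose lay above both controls and the high dose below both.

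The same order held for the group means of Hpgds, Deptor and Dusp4. Hpgds, prostaglandin D synthase, was at 11.71 and 11.98 at 2.5 µM and 10.63 and 10.92 at 40 µM, a difference of -1.07 (SE 0.20). Deptor, an inhibitor of mTOR, was at 12.80 and 12.76 and at 11.93 and 11.54, a difference of -1.05 (SE 0.20). Dusp4, a MAP kinase phosphatase, was at 12.12 and 11.94 and at 11.28 and 11.25, a difference of -0.77 (SE 0.18). Within its list of immediate early and MAPK feedback genes, 8 of 26 measured members were higher in both pairs and 8 lower, and Ier3, an early response gene, was higher by 0.44 (SE 0.21).

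Genes whose low dose lay near or below control and whose high dose lay lower included Masp1, a complement-activating protease, at 14.34 and 14.30 at 2.5 µM and 12.85 and 13.50 at 40 µM, against 14.39 and 14.50 in control. Its difference was -1.14 (SE 0.23). Eps8, an actin regulator, was at 13.90 and 13.98 and at 12.84 and 13.21, a difference of -0.91 (SE 0.19). Mcam, the melanoma cell adhesion molecule CD146, was at 12.22 and 12.45 and at 11.17 and 11.79, a difference of -0.86 (SE 0.25). Pfkfb3, the kinase that makes the glycolytic activator fructose 2,6-bisphosphate, was at 10.89 and 11.12 and at 10.08 and 10.50, a difference of -0.71 (SE 0.22). Glycolysis as a list had 4 of 19 measured members higher in both pairs and 4 lower, and Slc2a1, the glucose transporter GLUT1, was 0.36 higher (SE 0.16).

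Slc6a8, the creatine transporter, was the 1 gene of the 20 whose controls lay below both dose means. It was at 13.32 and 13.18 at 2.5 µM and at 12.60 and 12.38 at 40 µM, against 12.34 and 12.37, so that the high dose lay near control and the low dose away from it. Atl3, an ER-shaping GTPase, had the same form, at 12.67 and 12.59, at 12.06 and 11.96 and, in control, at 12.10 and 11.97. The remaining named genes, Dip2c, Insc, Mrs2, Trim63, Mta2 and Gxylt2, had differences from -0.65 (Trim63) to -0.88 (Insc).

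The position of the controls differed between the directions. Of the 20 higher genes, 15 had a control mean below both dose means and 5 one between them. Of the 20 lower genes, 14 had it between, 5 above both and 1 below both. Over all genes above background with a shared direction the same counts were 538 below, 342 between and 182 above for the 1062 higher genes, and 276 below, 404 between and 379 above for the 1059 lower genes. In the higher set 32.2% and in the lower set 38.1% thus had the doses on opposite sides of the control mean. The doses were contrasted to choose these genes, and the positions are given as a description.

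Melanocyte genes were examined by role. Among lineage factors and receptors, 0 of 10 measured members were higher in both pairs and 7 lower, against 24.6% and 26.2% of all genes. The doses did not overlap for 5 of the 7, against 16.3% of all genes, and the median difference was -0.29, with -0.28 and -0.25 in the pairs. After quantile normalization 7 were lower and 1 higher. Above background lay 6 of the 10, of which 4 were lower in both pairs and 2 had no shared direction. The median difference over these 6 was -0.29 as well. Below the median negative control feature lay 3 members. Mitf was at 15.83 and 15.88 at 2.5 µM and at 15.10 and 15.51 at 40 µM, a difference of -0.54 (SE 0.18), against 16.03 and 15.95 in control. Kit, the stem cell factor receptor, was not above background, at 7.84 and 7.71 and at 6.68 and 6.75, a difference of -1.06 (SE 0.26). Mc1r, the melanocortin receptor, was 0.37 lower (SE 0.17), at 14.43 and 14.51 against 14.96 and 14.73. Pax3 and Met had differences of -0.31 (SE 0.19) and -0.27 (SE 0.21), and the doses overlapped for Met.

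Enzymes and matrix proteins of the melanosome itself differed less. Of 10 measured genes of melanin synthesis and the melanosome matrix, 1 was higher in both pairs and 3 lower. The shares of all genes were 24.6% and 26.2%. The median of -0.09 was 0.05 and -0.14 without replicates 1 and 2 at 2.5 µM. Without replicates 1 and 2 at 40 µM it was -0.18 and -0.0008. The 3 lower genes were Gpnmb, a melanosomal glycoprotein, at -0.36 (SE 0.14), Tyr, tyrosinase, at -0.20 (SE 0.19), and Dct, dopachrome tautomerase, at -0.12 (SE 0.13). Tyrp1 differed by 0.01 (SE 0.16). In melanosome biogenesis and transport 6 of 14 measured members were higher in both pairs and 4 lower, against 24.6% and 26.2% of all genes. Mlph, melanophilin, was at 13.16 and 13.03 at 2.5 µM and 12.32 and 12.41 at 40 µM, a difference of -0.73 (SE 0.17), and Rab27a, its partner on the melanosome, was at 15.48 and 15.47 and at 14.74 and 15.04, a difference of -0.59 (SE 0.18). Against these, Bloc1s1 was higher by 0.96 (SE 0.52) with overlapping doses. Trpm1, the ion channel melastatin, is not on this list and was named for its pair differences. It was at 14.11 and 13.69 at 2.5 µM and at 13.22 and 12.96 at 40 µM, a difference of -0.81 (SE 0.21).

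Of 25 measured DNA replication genes 10 were lower at 40 µM in both pairs and 2 higher, against 26.2% and 24.6% of all genes. The median difference was -0.18, with -0.04 in the replicate 1 pair and -0.29 in the replicate 2 pair. It was -0.05 and -0.31 without replicates 1 and 2 at 2.5 µM, and -0.45 and 0.003 without replicates 1 and 2 at 40 µM. Against control the list's median was 0.18 at 2.5 µM and -0.16 at 40 µM. The helicase subunits Mcm2, Mcm4 and Mcm5 were 0.44, 0.47 and 0.58 lower (SE 0.17, 0.19 and 0.19). Mcm4, for example, was at 10.47 and 10.55 at 2.5 µM and at 10.02 and 10.04 at 40 µM, against 10.41 and 10.25 in control. Rrm1, of ribonucleotide reductase, was 0.51 lower (SE 0.18), and Chaf1a, a histone chaperone, 0.29 lower (SE 0.18). Pcna, the replication clamp, had no shared direction. It was at 14.82 and 14.14 at 2.5 µM and at 15.66 and 13.88 at 40 µM, a difference of 0.29 (SE 0.53) that was 0.84 in 1 pair and -0.26 in the other. In the mitosis list 6 of 23 measured members were higher in both pairs and 5 lower.

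Some lists of housekeeping functions had their difference mainly in the replicate 1 pair. The median difference of 18 proteasome genes was 0.62 in the replicate 1 pair and -0.02 in the replicate 2 pair, that of 25 oxidative phosphorylation genes 0.45 and -0.02, that of 17 citric acid cycle genes 0.62 and 0.09, and that of 21 cytosolic ribosomal protein genes 0.40 and 0.08. These lists also separated the replicates. The proteasome genes' median against control was 0.61 and 0.02 on replicates 1 and 2 at 2.5 µM, and 1.38 and -0.0001 at 40 µM. Ribosomal protein genes gave 0.69 and -0.24 at 2.5 µM and 1.15 and -0.15 at 40 µM. The arrays with the high medians are those with low hybridisation and poly-A controls, and the part of that in these lists was not tested. For the proteasome and the ribosomal protein lists the doses overlapped for every measured member.

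In lists of other functions the mean of the pairs gave small medians. Heat shock chaperones had a median difference of 0.03, with 0.16 and -0.12 in the pairs and 3 of 13 measured members higher in both pairs and 1 lower. The p53 targets had 4 of 16 higher and 4 lower, among them Gadd45a, a growth arrest gene, at 0.65 (SE 0.26). Lysosome and autophagy genes had 5 of 21 higher and 4 lower, with Sqstm1, the autophagy receptor p62, at 16.14 and 15.97 at 2.5 µM and 16.54 and 16.69 at 40 µM, 0.56 higher (SE 0.16). The interferon list had a median of 0.02, with 0.25 and -0.13 in the pairs, and 7 of 19 members higher and 3 lower, 1 of the 19 being above background.

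**Figure D4:**
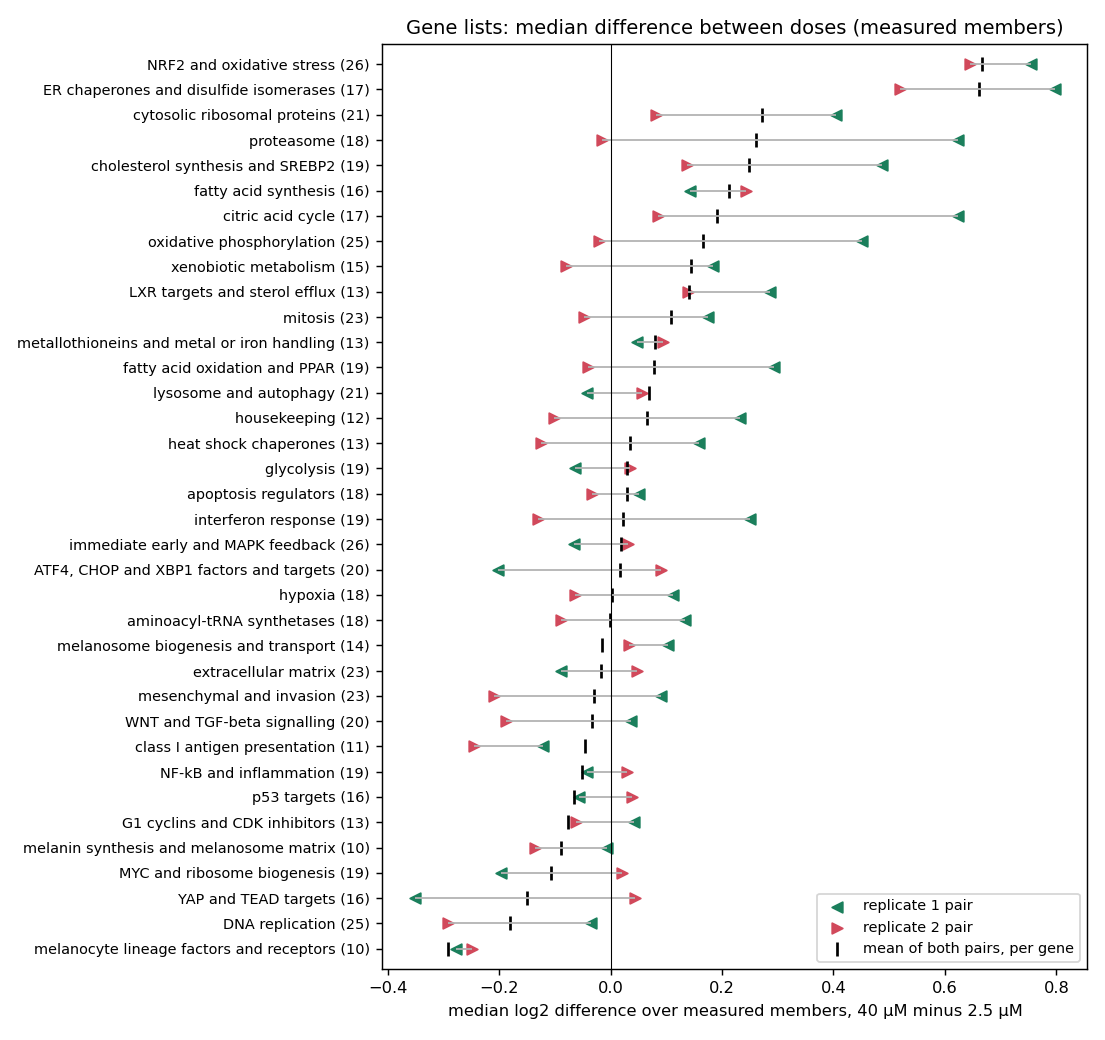
Median log2 difference between the doses (40 µM minus 2.5 µM) over the measured members of each gene list, with the number of members in parentheses; green triangles are the replicate 1 pair, red triangles the replicate 2 pair and black bars the median of the mean difference per gene. NRF2 and ER chaperone genes stand apart at 0.67 and 0.66 with both pairs above 0.5, melanocyte lineage factors are lowest at -0.29, and proteasome, oxidative phosphorylation and citric acid cycle genes have a replicate 1 pair far to the right of the replicate 2 pair.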

How the data were processed

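Per the labels' protocols, biotin-labelled cRNA from total RNA was hybridised to single-colour Affymetrix arrays. The deposited values are log2 levels, and the submitters' processing notes list RMA, the Transcriptome Analysis Console and the Affymetrix Expression Console, with no version. On each array 259 to 269 features exceeded 16, the log2 limit of a plain scanner image, and the step behind this scale is not given in the sources used here. Of 22206 transcript clusters 19572 had exactly 1 gene symbol in the platform annotation, and a gene was represented by its cluster of highest mean, which left 19505 genes.

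Differences were tested with limma 3.58.1 in R 4.3.3, with group means on all 6 arrays, no covariates and a prior that followed the mean level (3 residual degrees of freedom, prior 4.11), two-sided, and p was adjusted over all genes by Benjamini-Hochberg. The test was tried on simulated data. Background was the 95th percentile of 5222 negative control features. Named genes are the 20 in each direction above background with the largest smaller-of-2 pair differences and, per described list, up to 5 members by the same measure and the best known ones. The 41 lists hold 736 genes, of which 663 were measured, and they were not tested as sets. Members, lists and rules were chosen with earlier results of these data known. Arrays give no read depth, and their number limits the precision. Promoter sequences are RefSeq's, for build GRCm38.p6. Of 19505 genes 15691 had a window.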

Additional observations from a re-analysis of the deposited data

How the results depend on the processing

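No gene passed an adjusted p under 0.05 (limma), as reported and under each alternative but 2: with the array split as a block 1 gene passed, and without both arrays low in hybridisation controls 2965, where each dose is 1 array assumed to vary like the controls. Genes higher and lower at an unadjusted p under 0.05, 456 and 639 as reported, were 1340 and 1234 with the array split block, 183 and 281 with the 4 dose arrays only, 70 and 139 when genes above background alone were tested, 184 and 261 with array weights, and 2954 and 3355 without both low arrays. Leaving out single arrays gave 186 to 2284 higher and 282 to 1794 lower genes, and 0 to 0 past the adjusted threshold. The 1062 higher and 1059 lower genes with a shared direction became 165 and 234 at the 99th percentile of the negative controls, and the higher genes 573 with the other pairing of the arrays.

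Replicate numbers are not said to mark a shared batch, and with 2 of them the pairing was not taken as given. With the replicate number as a block 0 genes passed the adjusted threshold, and 571 higher and 643 lower genes had an unadjusted p under 0.05. Deviations of the replicates from their group means correlated across genes at 0.386 between the doses, -0.012 between 40 µM and control and -0.0045 between 2.5 µM and control.

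Of 94 genes named, the direction of 8 turned under some alternative. Without both low arrays the differences of Ero1a, Sel1l, Pcna and Tyrp1 were -0.0076, 0.10, -0.26 and -0.14. Over the fits without single arrays Dad1 ran from -0.11 to 2.17, Sesn2 from -0.37 to 0.00215, Prdx1 from -0.20 to 1.39, Ero1a from -0.0297 to 0.20, Herpud1 from -0.15 to 0.21, Sel1l from -0.14 to 0.066, Pcna from -0.60 to 1.18 and Tyrp1 from -0.16 to 0.18. In 1304 of the named genes' refits direction and call were as reported. Named genes newly passed the adjusted threshold in 2 settings only. These were the array split block, for Srxn1, and the fit without both low arrays. The latter has 1 array per dose and takes its spread from the controls. Of the lists' median differences 534 refits were within the replicate spread of the reported value and 77 were not. The cause was not tested.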

Other observations

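Values of 3 genes that stand on no list are given here. They were chosen after their values were seen and stand for no group. Rpn2, a subunit of oligosaccharyltransferase, was at 13.13 and 13.30 at 2.5 µM and at 13.94 and 13.95 at 40 µM, against 14.11 on both controls, so that the low dose was the one away from control (difference 0.73, SE 0.16; limma adjusted p = 0.854). Tmem258, another subunit, was at 10.33 and 9.06 and at 11.02 and 9.97, a difference of 0.80 (SE 0.48) with overlapping doses. St3gal1, a sialyltransferase like St3gal4, was at 11.81 and 11.65 at 2.5 µM and at 10.65 and 11.07 at 40 µM, against 11.56 and 11.64 in control, a difference of -0.87 (SE 0.21; limma adjusted p = 0.854).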
